A study of Rattus norvegicus with 6 samples.

Results

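The Hox genes were taken from the deposited table as every row whose whole gene name reads Hox, a letter from a to d and a number. This gave 37 of 30957 rows, with 35 different names, since Hoxa5 and Hoxa11 each stood in 2 rows. The series compared crushed sciatic nerves with intact contralateral nerves of Sprague Dawley rats by RNA-seq, and its title and labels ask which lncRNAs and mRNAs differ between them. Per the methods, the rats were adult males, the nerve was crushed with forceps, and 0.5 cm of the proximal stump and the contralateral nerve were collected at 4 days postinjury. Each group held 3 libraries. Those titled C-1 to C-3, with normal sciatic nerve tissue as the source, are called intact 1 to 3 here. Those titled T-1 to T-3, with injured sciatic nerve tissue as the source, are called crushed 1 to 3. Labelled intact and labelled crushed mean these groups below. Neither group carried a transgene or a drug treatment. The design text calls the libraries biological replicates, and nothing says whether equal numbers mark the same rat, so the p-values measure the spread between these libraries.

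Hox genes encode homeodomain transcription factors that give cells along the head to tail axis their identity. In mammals they lie in 4 clusters, A to D, and genes of the same rank in different clusters are paralogues with the same number. Low numbers are used from the hindbrain backward and high numbers toward the tail, the ends of the limbs and the urogenital region, an order called collinearity, and many connective tissue cells of adult animals keep part of this code. In the hindlimb and the lumbosacral trunk, from which the sciatic nerve arises, genes of ranks 9 to 13 are known as the ones in use, Hoxc10 among them.

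The libraries were checked against the tissue on their labels before the Hox values were read, because the level of a positional gene depends on the cells that are present. Of the 10 myelinating Schwann cell markers, Cldn19, Mag, Mal and Mbp were among those with at most 3 counts in any library, and the summed FPKM of the list lay between 36.6 and 37.3 in the libraries labelled intact and between 38.5 and 40.4 in those labelled crushed. FPKM are the reads on a gene scaled by its length and by the reads counted in the library. Of the 12 Schwann lineage markers present in the table, 5 (Cdh19, Gap43, S100b, Shh and Sox10) were as low, with sums between 85.8 and 100.5 and between 79.1 and 83.7. Other members of both lists were well counted, and 5 of the 10 myelin and 6 of the 12 lineage markers had 3 or more counts in every library. Among them were Pmp22 with 821 to 968 counts, Cnp with 1086 to 1473, Prx with 590 to 690, Ncam1 with 2064 to 2489 and Jun with 3148 to 4102. The fibroblast genes Col1a2, Dcn and Lum, the leukocyte gene Ptprc and the endothelial gene Cldn5 had 0 counts in all 6 libraries. All 10 markers of proliferating cells were counted in every library, with sums between 987.1 and 1005 and between 991.0 and 991.9 FPKM. Of the other lists, 7 of 10 fibroblast, 6 of 9 pericyte and smooth muscle, 4 of 6 perineurial, 4 of 8 endothelial, 3 of 10 leukocyte, 2 of 8 neuronal, 2 of 8 epithelial, 2 of 8 chondrocyte and osteoblast, 1 of 9 skeletal muscle and 0 of 5 adipocyte markers in the table had 3 or more counts in every library. The summed FPKM of both Schwann cell lists, given above, did not overlap between the groups. The myelin list was higher and the lineage list lower in the libraries labelled crushed. The summed FPKM of some other lists did not overlap either. It was 111.5 to 118.4 in the libraries labelled intact and 93.2 to 105.7 in those labelled crushed for the fibroblast list. For the pericyte and smooth muscle list it was 41.7 to 45.3 and 34.9 to 36.2. For the chondrocyte and osteoblast list it was 33.4 to 35.4 and 29.3 to 30.6, and for the epithelial list 5.87 to 7.15 and 10.03 to 11.5. The sums of the remaining lists overlapped, those of the leukocyte list (2.22 to 3.19 and 2.47 to 3.84) among them. Of all genes tested singly, on counts scaled by library size, 23.0% did not overlap between the groups. Several defining markers of the labelled tissue were thus at or near 0 in both groups while other markers of the same lists were counted, and the cells behind the Hox values below cannot be named from these libraries. The part of this in any result was not tested. Fewer cells of a type and less RNA per cell cannot be told apart in bulk RNA.

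Hox expression was uneven between the clusters. A Hox row was taken as detected at 3 or more counts in all 6 libraries, and 15 of the 37 rows were. These were 7 of 9 rows in cluster D, 5 of 10 in cluster B, 3 of 8 in cluster C and 0 of 10 in cluster A. A further 5 rows (Hoxb2, Hoxb7, Hoxb8, Hoxb9 and Hoxd12) had some counts below that limit, and 17 rows, or 45.9%, had 0 counts in every library, against 43.7% of all rows of the table. The summed Hox level was 83.1 ± 1.38 FPKM (SD, n = 3) in the libraries labelled intact and 81.7 ± 2.80 FPKM (SD, n = 3) in those labelled crushed, of which cluster D held 63.3 ± 1.05 and 63.3 ± 2.32, cluster B 18.9 ± 0.387 and 17.6 ± 1.22, and cluster C 0.925 ± 0.129 and 0.776 ± 0.0325.

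The start of 3 of these genes is shown because they mark the contrast that the levels turn on. Hoxd13 was the most highly expressed Hox gene, Hoxd12 is its direct neighbour in the same cluster and was near 0, and Hoxa13 is its paralogue in the cluster that had no counts. The sequences are RefSeq promoters of the GRCr8 assembly, 300 bases each that lie mostly before the start of the gene and end shortly after it, and capitals mark the CpG dinucleotides. Hoxd13 lies at chr3:79977827-79978126 on the plus strand, Hoxd12 at chr3:79984856-79985155 on the plus strand and Hoxa13 at chr4:82691652-82691951 on the minus strand.
Hoxd13: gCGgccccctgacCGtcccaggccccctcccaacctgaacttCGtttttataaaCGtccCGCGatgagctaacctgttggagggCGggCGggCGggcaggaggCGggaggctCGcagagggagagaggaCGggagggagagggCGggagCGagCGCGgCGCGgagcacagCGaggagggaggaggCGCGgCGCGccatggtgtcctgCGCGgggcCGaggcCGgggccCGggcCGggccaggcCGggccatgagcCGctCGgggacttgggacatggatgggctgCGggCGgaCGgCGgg
Hoxd12: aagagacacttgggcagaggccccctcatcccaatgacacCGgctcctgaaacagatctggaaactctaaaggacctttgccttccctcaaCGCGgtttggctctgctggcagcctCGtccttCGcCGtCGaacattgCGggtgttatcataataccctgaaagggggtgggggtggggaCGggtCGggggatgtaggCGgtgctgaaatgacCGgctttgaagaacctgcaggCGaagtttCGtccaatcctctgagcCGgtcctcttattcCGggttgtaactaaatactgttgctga
Hoxa13: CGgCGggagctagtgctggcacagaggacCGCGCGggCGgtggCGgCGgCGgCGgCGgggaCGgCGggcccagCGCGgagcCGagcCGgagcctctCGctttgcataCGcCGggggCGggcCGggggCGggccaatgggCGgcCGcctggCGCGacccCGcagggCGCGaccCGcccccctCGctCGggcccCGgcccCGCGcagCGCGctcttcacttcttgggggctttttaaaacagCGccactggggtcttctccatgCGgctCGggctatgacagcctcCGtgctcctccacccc

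Such promoters were held for 18 of the 35 Hox names, which included all 9 names of cluster D. The Hoxd13 window held 36 CpG and had more than 94.6% of the 33469 rat promoters of the same length, the Hoxd12 window 16 (more than 69.5%) and the Hoxa13 window 42 (more than 97.6%). The count of CpG thus did not follow the level, since Hoxa13 had the most CpG of the 3 and no counts. Over cluster D the number ran from 12 in Hoxd4 to 49 in Hoxd8, with a median of 25, and over 10 windows of cluster A from 9 to 42, with a median of 21.5. The TATA box TATAAA, searched on both strands, was found in the Hoxd13 window, as 1 stretch that is read as a match on each strand, and in neither of the other 2, while 14.2% of all promoters held it. The GC box GGGCGG, which contains a CpG, was found 5 times in Hoxd13 and 5 times in Hoxa13 and not in Hoxd12, and 33.1% of all promoters held it. These matches describe the letters only.

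In cluster D, on chromosome 3 from 61590376 to 61687758 in the coordinates of the table, 7 genes were detected, and the level did not change steadily along the cluster. Hoxd13, which patterns digits and the urogenital tract, had 1662, 1689 and 1535 counts in intact 1, 2 and 3 and 1655, 1656 and 1541 in crushed 1, 2 and 3. Its FPKM lay between 24.6 and 26.2, and 78.2% of the rows with any count had a lower mean level. The gene next to it, Hoxd12, which acts in the same distal structures, had 1 count in 4 libraries and 0 in intact 1 and crushed 2. These neighbours, whose rows lie 3.69 kb apart, were therefore the highest and one of the lowest of the counted Hox genes in all 6 libraries.

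Hoxd11, which shapes the forearm, the lower leg and the sacral vertebrae, had 71, 66 and 68 counts in the libraries labelled intact and 73, 75 and 45 in those labelled crushed. Crushed 3 was the low value, and the other 5 libraries lay within 66 and 75 counts. The level of Hoxd13 was between 8.75 and 13.6 times that of Hoxd11 on the FPKM scale.

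Hoxd10, a gene of lumbar segments and their motor neurons, had 441, 459 and 412 counts in the libraries labelled intact and 446, 509 and 422 in those labelled crushed. Hoxd9, a neighbour with a similar range along the trunk and the limb, had 306, 370 and 357 counts and 406, 380 and 280 counts. Hoxd8, a gene of the trunk, had 313, 355 and 310 counts and 352, 369 and 318 counts. Because the lengths that the authors used differ, the order by level is not that by count. Hoxd8 stood at 14.7 to 16.4 FPKM, above Hoxd10 at 7.36 to 8.44 and Hoxd9 at 6.25 to 8.31 in all 6 libraries, and the ranges of Hoxd10 and Hoxd9 overlapped.

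Hoxd4 and Hoxd3 are genes of the hindbrain and the neck. Hoxd4 had 193, 220 and 235 counts in the libraries labelled intact and 256, 273 and 210 in those labelled crushed, or between 2.80 and 3.75 FPKM. Hoxd3 had 81, 97 and 103 counts and 91, 111 and 112 counts, or between 1.25 and 1.78 FPKM. Hoxd1, at the end of the cluster that is used most anteriorly, had 0 counts in every library. The row of Hoxd4 spans another row of the table, AABR07052559.1, and how reads on both were assigned is not given in the sources used here.

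In cluster B, on chromosome 10 from 84031955 to 84215687, 2 stretches of the cluster were detected with a part near 0 between them. Hoxb13, a gene of the tail and the prostate, had 350, 385 and 279 counts in the libraries labelled intact and 300, 325 and 309 in those labelled crushed, or between 8.21 and 10.8 FPKM. It was the third Hox gene by mean level over the 6 libraries, but in crushed 1 it stood below Hoxd9, at 8.21 against 8.31 FPKM. Hoxd13 was between 2.38 and 2.99 times as high as this paralogue. The row of Hoxb13 lies 85.7 kb from that of Hoxb9. The next widest gap between consecutive rows with Hox names in clusters B, C and D was 27.9 kb, between Hoxc12 and Hoxc10. A row described as Hox-C11 lies within that gap.

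Hoxb9, Hoxb8 and Hoxb7, genes of the thoracic trunk, were close to 0. Hoxb9 had 2 counts in crushed 2 and none elsewhere. Hoxb8 had 1 count in intact 3 and none elsewhere. Hoxb7 had 6, 1 and 3 counts in the libraries labelled intact and 0, 7 and 5 in those labelled crushed. No difference between groups was detectable in these 3 genes at this depth.

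From Hoxb6 to Hoxb3, genes used from the hindbrain to the upper trunk, the cluster was detected again. Hoxb6 had 78, 76 and 84 counts in the libraries labelled intact and 69, 99 and 67 in those labelled crushed. Hoxb5 had 50, 46 and 61 counts and 55, 58 and 63 counts. Hoxb4 had 39, 46 and 64 counts and 65, 56 and 60 counts. Hoxb6 stood highest of these, at 3.77 to 5.43 FPKM and between 2.42 and 3.88 times the level of Hoxb5, and the ranges of Hoxb5 (1.13 to 1.65 FPKM) and Hoxb4 (0.866 to 1.46 FPKM) overlapped. Hoxb3 had 100, 110 and 100 counts in the libraries labelled intact and 87, 75 and 84 in those labelled crushed, so that its groups did not overlap. Hoxb2, which patterns a segment of the hindbrain, had between 1 and 4 counts per library, and Hoxb1, another hindbrain gene, had 0.

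In cluster C, on chromosome 7 from 144531814 to 144650129, the 3 genes of the lowest numbers were detected at low levels, with sums of 33 to 46 counts per library. Hoxc6, whose range begins near the level of the forelimb, had 15, 21 and 15 counts in the libraries labelled intact and 19, 17 and 13 in those labelled crushed. Hoxc5 had 17, 10 and 9 counts and 6, 12 and 15 counts. Hoxc4 had 4, 15 and 16 counts and 9, 4 and 7 counts. Hoxc5 and Hoxc4 act in the neck and the upper trunk, and their groups overlapped, as did those of Hoxc6. Hoxc8, Hoxc9, Hoxc10, Hoxc12 and Hoxc13 had 0 counts in all 6 libraries, and so did the row described as Hox-C11-like. A count of 0 allows up to 3 counts, or between 0.110 and 0.121 normalised CPM (counts scaled by library size), and this limit covers counting error only.

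In cluster A all 10 rows had 0 counts in every library. They were Hoxa2, Hoxa3, both rows of Hoxa5, Hoxa6, Hoxa7, Hoxa9, both rows of Hoxa11 and Hoxa13, of which Hoxa13 lies on the unplaced sequence KL567939.1 and the others on chromosome 4 between 82131329 and 82300503. A further 6 rows described as similar to Hox-A1, A4, A7, A9 and A10 also had 0 counts, and with these and Hox-C11 the table covered 39 different Hox genes. In all, 16 of the 16 rows of the table that overlap this stretch of 169.2 kb were at 0. The zeros ran past this stretch, over the next 2 rows on one side and the next 4 on the other. The row described as similar to Hox-A1 is among the 2, so that side still holds cluster A. A row described as even-skipped homolog protein 1, an Evx gene, is among the 4. The nearest row with counts before the stretch was Skap2, an adaptor protein gene 162.5 kb away, at 52.0 to 56.7 FPKM. After the stretch it was Hibadh, an enzyme of valine breakdown 303.9 kb away, at 67.0 to 72.4 FPKM. The annotation of this stretch is itself irregular, because 2 names have 2 rows each and the row of Hoxa6 is 90.0 kb long and overlaps 7 other rows, 3 of them Hox rows. How reads on such rows were assigned is not given in the sources used here, and its part in the zeros was not tested.

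**Figure D1:**
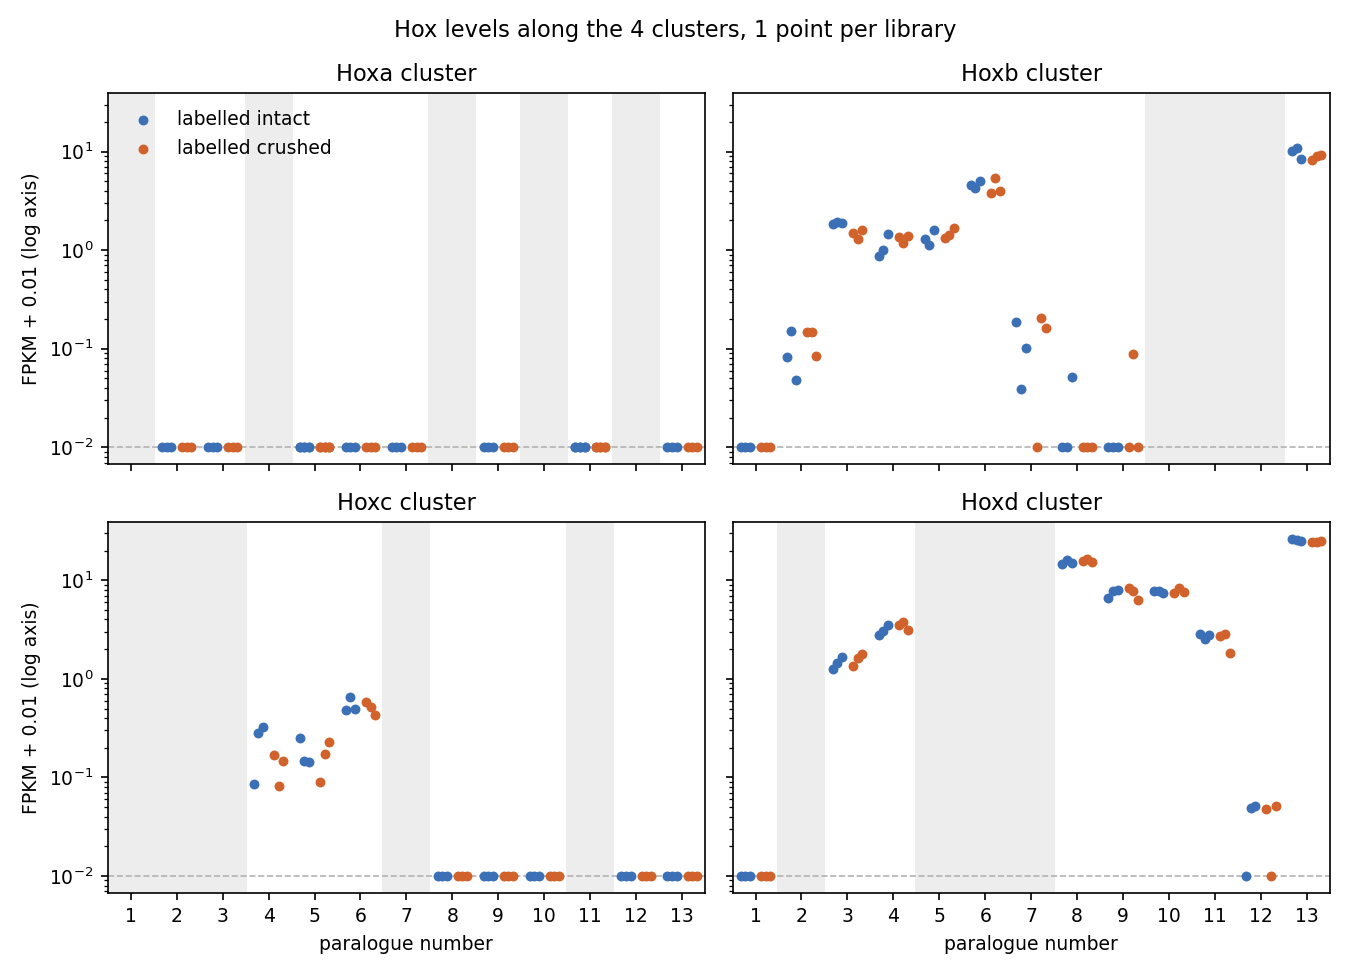
FPKM + 0.01 on a log axis against paralogue number in each of the 4 Hox clusters, with 1 point for each of the 3 libraries labelled intact (blue) and the 3 labelled crushed (orange). The dashed line marks 0 FPKM and grey bands mark numbers with no row of that name. Every row of cluster A lies on the dashed line, cluster C ends at number 6, and cluster D runs from number 3 to its highest level of 24.6 to 26.2 FPKM at number 13 with number 12 near 0.

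The axial position given by the detected genes was read from the highest number in each cluster. It was 13 in cluster D, 13 in cluster B and 6 in cluster C, and cluster A gave none. By the usual order, number 13 stands for the tail, the distal limb and the urogenital region, and a cluster C code that stops at number 6 for the level of the forelimb or the upper chest. The 4 clusters therefore did not give 1 common level, and the level of cluster C rests on few counts. Its detected genes had 4 to 21 counts per library, or 0.0715 to 0.640 FPKM. Hoxc6 alone of these had 10 or more counts in all 6 libraries. Within cluster B, Hoxb7, Hoxb8 and Hoxb9 fell below the limit of detection between the detected Hoxb6 and Hoxb13. The rows of Hoxc8 to Hoxc13, which include ranks of the lumbosacral trunk and the hindlimb, were at 0. In cluster D genes of such ranks were detected, with Hoxd9 at 6.25 to 8.31 FPKM, Hoxd10 at 7.36 to 8.44 and Hoxd11 at 1.84 to 2.82.

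Ranks 9 to 13 held most of the Hox expression. Their share of the summed FPKM was 64.0% ± 1.62 (SD, n = 3) in the libraries labelled intact and 62.7% ± 0.760 (SD, n = 3) in those labelled crushed, from 5 detected rows of 15. Ranks 4 to 8 held 31.9% ± 1.41 and 33.4% ± 0.802, from 8 detected rows of 15, and ranks 1 to 3 held 4.11% ± 0.231 and 3.86% ± 0.385, from 2 detected rows of 7. The group means of each share differed by less than 1.51 percentage points, and their ranges overlapped. Hoxd13 by itself made up between 29.1% and 32.0% of the sum, and without it ranks 4 to 8 and ranks 9 to 13 had nearly equal shares, with means of 47.0% and 47.3% over the 6 libraries.

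**Figure D2:**
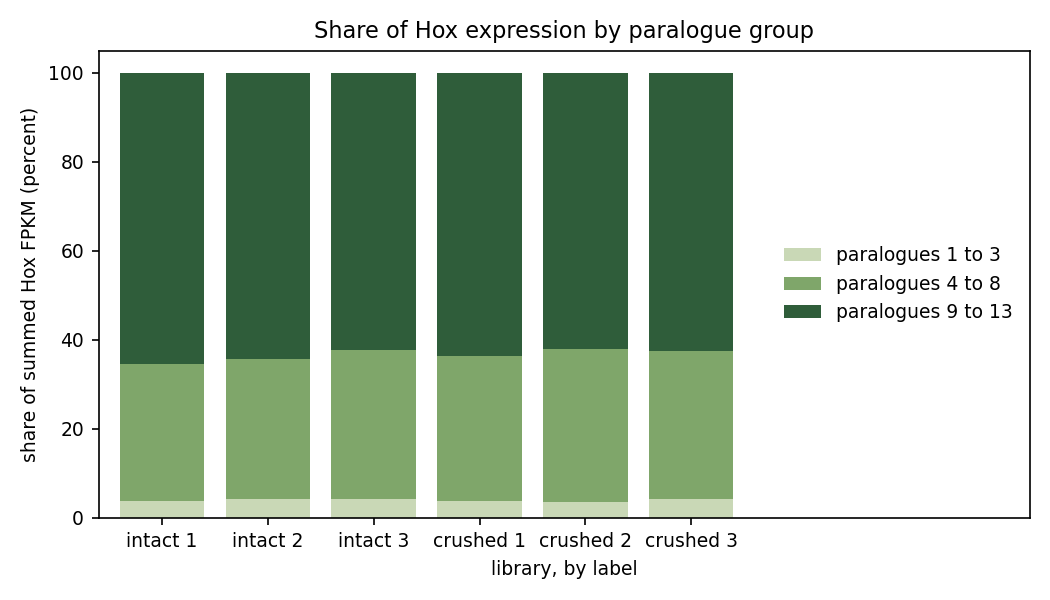
Share of the summed Hox FPKM, in percent, held by paralogues 1 to 3, 4 to 8 and 9 to 13 in each of the 6 libraries, as stacked bars from 0 to 100. Paralogues 9 to 13 take between 62.1% and 65.4% in every library, whichever its label.

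Positional genes outside the clusters gave a mixed picture. Among genes of limb position, Pitx1, which specifies the hindlimb, and Tbx5, which specifies the forelimb, had 0 counts in all libraries, and Tbx4, a second hindlimb gene, had 1 count in crushed 1 and none elsewhere. These 3 genes were picked with their values known. Of the 11 rows of this list, 5 had 0 counts in all libraries and 5 had 3 or more counts in every library. The counted 5 were Shox2 at 16.0 to 21.1 FPKM, Emx2 at 8.65 to 11.1 and Pax9 at 6.71 to 8.04, with Isl1 and Hand2. Isl1, a gene of the early hindlimb, stood at 5.56 to 6.04 FPKM and Hand2 at 1.93 to 2.68. Of the 7 rows of ParaHox and Evx genes, relatives of the Hox genes, 6 had 0 counts, Evx2 next to Hoxd13 among them. The exception was Cdx2, a regulator of the caudal trunk and the intestine, with 421, 411 and 362 counts in the libraries labelled intact and 384, 386 and 375 in those labelled crushed, or between 6.91 and 8.04 FPKM. RNA was counted for genes whose proteins bind DNA together with Hox proteins, and 7 of the 9 cofactor genes were detected. Pbx2 stood between 29.2 and 31.5 FPKM, Meis2 between 22.2 and 25.6, Pbx3 between 21.4 and 23.8 and Meis1 between 17.2 and 20.6.

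For the comparison of the libraries labelled crushed with those labelled intact, the whole table was fitted with edgeR's quasi-likelihood test, and 14 Hox genes were among the 12393 genes that passed its expression filter. These were the detected genes apart from Hoxc4. Of the 14, 0 reached the limits of the methods, which ask for more than 1 log2 unit in either direction at p under 0.001 (read here as unadjusted), against 0.282% of all genes tested. At an adjusted p under 0.05 without a limit on the fold change 0 of the 14 passed, against 3.12% of all genes tested, and 1 of the 14 had an unadjusted p under 0.05 in edgeR, against 16.2%. DESeq2 also passed 0, with 0 at an unadjusted p under 0.05, and limma on log2(FPKM + 0.1) passed 0, with 1. Background shares of this size amount to few or no genes among 14.

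Hoxb3 was the gene with the unadjusted p under 0.05. It had 4.05 ± 0.109 normalised CPM (SD, n = 3) in the libraries labelled intact and 3.10 ± 0.304 (SD, n = 3) in those labelled crushed, which is -0.39 on the log2 scale with a standard error of 0.133 and a 95% interval of -0.68 to -0.10 (edgeR quasi-likelihood p of 0.169 after the Benjamini-Hochberg adjustment over all genes tested). All 3 libraries labelled crushed lay below all 3 labelled intact. The neighbours Hoxb4 and Hoxb5 had values of the other sign, 0.22 and 0.11.

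Hoxd13 had 63.9 ± 1.86 normalised CPM (SD, n = 3) and 61.0 ± 0.451 (SD, n = 3), which is -0.07 on the log2 scale with a standard error of 0.0470 and a 95% interval of -0.17 to 0.04 (adjusted p of 0.529 in the same edgeR test). On this scale of normalised CPM its groups also did not overlap, so that 2 of the 14 Hox genes did not, against 23.0% of all genes tested. On the FPKM scale the groups of Hoxd13 did overlap, with intact 3 at 24.88 and crushed 3 at 24.92. The interval of Hoxd13 was the narrowest of the 14, and it held no change as large as 1 on the log2 scale in either direction. The interval lay within -1 and 1 for 13 of the 14 genes. The exception was Hoxc5, whose value of -0.18 had an interval of -1.11 to 0.75 and whose counts were between 6 and 17.

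The other genes of clusters B and D had log2 fold changes close to 0 against the spread between libraries. In cluster D they were 0.11 for Hoxd3, 0.13 for Hoxd4, 0.03 for Hoxd8, -0.02 for Hoxd9, 0.01 for Hoxd10 and -0.15 for Hoxd11. In cluster B they were -0.08 for Hoxb6 and -0.17 for Hoxb13, and in cluster C -0.11 for Hoxc6. Over the 14 genes the median was -0.04, against -0.0017 over all genes tested, 6 of the 14 values were above 0, and the adjusted p from edgeR ran from 0.169 to 0.965. Hoxc4 was too low for the filter and stood at -0.85 ± 0.533 (standard error) on the log2 scale when the edgeR test was run without the filter, with an adjusted p of 0.569.

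**Figure D3:**
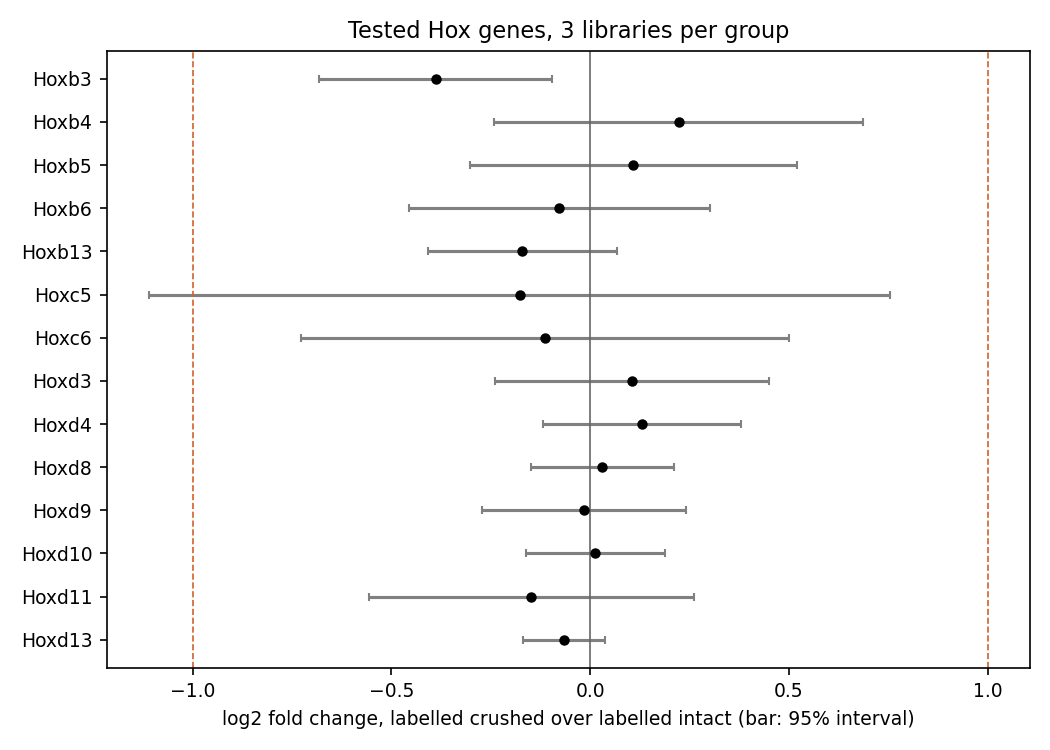
Log2 fold change of the 14 tested Hox genes, libraries labelled crushed over libraries labelled intact, with 95% intervals from edgeR's quasi-likelihood fit as bars (3 libraries per group). Dashed lines mark -1 and 1, the fold limits of the methods. Hoxb3 has the 1 interval that does not hold 0, and Hoxc5 the 1 interval that passes -1.

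The spread of the Hox genes was set against what counting alone gives. The chi-square of the 6 counts per degree of freedom is about 1 when libraries differ by counting error and nothing else. Its median over the 14 genes was above that, at 1.62, and it was under 2 in 9 of them. It was 0.507 for Hoxd8 and 1.15 for Hoxd10, and it was highest for Hoxb13 (4.31) and Hoxd9 (4.02). Intact 3 was low and intact 2 high in Hoxb13, and crushed 3 was low in Hoxd9.

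Genes known to set or read the Hox code were examined next. The Hox cofactors Pbx, Meis and Pknox had 7 genes tested, of which 0 passed an adjusted p of 0.05 and 0 an unadjusted p of 0.05. Their median log2 fold change was 0.0050, and those with the smallest p included Pbx4 (-0.28), Pknox1 (0.07) and Meis2 (0.04). Cdx2 stood at -0.12 on the log2 scale, with an adjusted p of 0.525 in edgeR. Of the Polycomb genes, whose complexes keep unused Hox genes silent, 30 were tested and 0 passed, with 7 at an unadjusted p under 0.05 (3 higher, 4 lower), against 16.2% of all genes tested, and a median of 0.0057. The 4 with the smallest p were Rbbp4 (0.23, adjusted p = 0.0989 from edgeR and 0.0202 from DESeq2), Phc3 (-0.17), Pcgf3 (-0.19) and Ring1 (-0.16). Of the Trithorax and H3K27 demethylase genes, which keep Hox genes active, 20 were tested and 0 passed, with 2 lower at an unadjusted p under 0.05, against 16.2% of all genes tested in either direction, and a median of -0.01. Here the smallest p belonged to Dot1l (-0.18), Psip1 (-0.16), Setd1b (-0.08) and Aff4 (0.07).

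Retinoic acid turns on Hox genes in order during development, and Gdf11 shifts the code toward the tail. Of this list 10 genes were tested and 0 passed, and the median log2 fold change was -0.13. At an unadjusted p under 0.05 there were 3, all lower, against 16.2% of all genes tested in either direction. Of all 12393 genes tested, 1177 were lower at that same limit. The 4 with the smallest p were the receptor genes Rarg (-0.43) and Rara (-0.19), then Gdf11 (-0.13) and Egr2 (-0.59), a hindbrain and Schwann cell regulator. Of 12 tested genes that flank the clusters 0 passed in edgeR, against 3.12% of all genes tested. At an unadjusted p under 0.05 there were 2, both lower, against 16.2% of all genes tested in either direction. The median of the 12 was -0.01. Snx10, a sorting nexin gene, had the smallest p (-0.21, adjusted p = 0.0544 from edgeR and 0.0309 from DESeq2), followed by Cbx5 (-0.10), Snx11 (0.23) and Mtx2 (0.13). Over all 7 lists DESeq2 passed 3 genes, Rbbp4, Snx10 and Shox2, and so none of the cofactors, the Trithorax genes or the retinoic acid genes.

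Of the 5 tested genes of limb position 1 passed an adjusted p of 0.05, against 3.12% of all genes tested. Shox2, which shapes the proximal bones of the limb, had 834, 871 and 781 counts in the libraries labelled intact and 721, 672 and 667 in those labelled crushed, with no overlap. Its level fell from 20.8 ± 0.483 to 16.8 ± 0.678 FPKM (SD, n = 3 each), or by 0.33 on the log2 scale, with a standard error of 0.0611 and an adjusted p of 0.0162 in edgeR. The adjusted p was 0.0424 with the replicate block and no longer under 0.05 without intact 2 (0.0643), crushed 1 (0.0686), crushed 2 (0.0991) or crushed 3 (0.0510). The values of the next genes were -0.20 for Emx2, -0.21 for Pax9 and -0.25 for Hand2, and Isl1, a gene of the early hindlimb, had 0.02. The summed fibroblast, pericyte and chondrocyte markers were likewise lower in the libraries labelled crushed, as given above, and their part in the value of Shox2 was not tested.

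**Figure D4:**
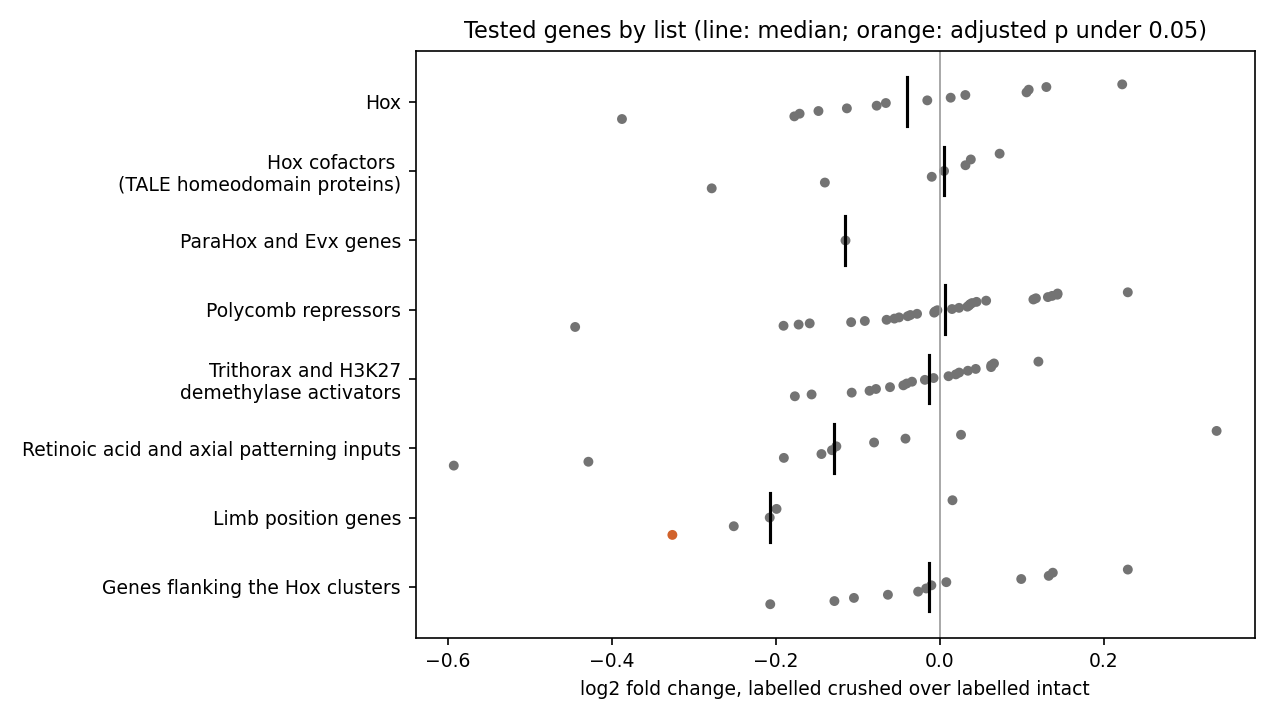
Log2 fold change of each tested gene, libraries labelled crushed over libraries labelled intact, for the Hox genes and for 7 lists of related genes, with the median of each list as a line. Shox2 among the limb position genes is the 1 point in orange, at an adjusted p under 0.05 in edgeR.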

How the data were processed

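RNA-seq of 3 libraries labelled intact and 3 labelled crushed was used. The authors deposited, per nerve and Ensembl gene, raw counts and FPKM values, which they computed per unit of gene length and per counted reads of the library. Per the labels, the submitters' processing notes name HISAT2, StringTie 1.3.0 and the Rnor_6.0 build without roles. The counting program, its use of strand and the annotation release are not given in the sources used here. Coordinates are those of the table. The methods describe RNase R digestion, which removes linear RNA, and the labels name a column extraction kit instead, so levels between genes could depend on which was done.

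The total count was between 24844371 and 27139360 per library, and libraries of one group differed by more than counting noise (chi-square divided by its degrees of freedom was 3.27 to 11.8). Counts were fitted with edgeR 4.0.16 (TMM, expression filter, quasi-likelihood test, R 4.3.3, limma 3.58.1) over all 6 libraries and all genes, without a replicate block, and adjusted with the Benjamini-Hochberg method over 12393 genes. The standard error was taken from the test statistic. The calculation was tested on simulated counts. The alternatives were the replicate block, DESeq2 1.42.0, no filter, limma on log2(FPKM + 0.1) or log2(FPKM + 1), no TMM factors, each library left out in turn, other limits of detection and other ways of taking shares.

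Every Hox row was accounted for, with counts per library for those detected, and of each related list up to 4 genes with the smallest p were named. Some genes of the lists are not reported here. The members and lists were chosen with earlier results of these data known, and lists are described by counts and medians.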

Additional observations from a re-analysis of the deposited data

How the results depend on the processing

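The number of Hox genes past either limit was 0 under all alternatives, the replicate block and the 6 fits that each left out 1 library included, and the smallest adjusted p of a Hox gene was 0.150 over the 11 alternatives for which single genes were tabulated. Log2 fold changes of single Hox genes changed sign 10 times among 154 values, always when 1 library was left out and never past the threshold. This held for Hoxc5 (-0.50 to 0.17 across these fits), Hoxc6 (-0.21 to 0.042), Hoxb6 (-0.26 to 0.025), Hoxd9 (-0.10 to 0.10), Hoxd10 (-0.049 to 0.054) and Hoxd11 (-0.26 to 0.019). Of the related genes, 1 passed an adjusted p of 0.05 (Shox2), against 3 with DESeq2 (Shox2, Rbbp4 and Snx10) and 0 to 1 with 1 library left out, where Snx10 was the 1 gene without crushed 3 (adjusted p of 0.0499 in edgeR). The cause was not tested. With raw counts in place of FPKM, the mean shares of ranks 1 to 3, 4 to 8 and 9 to 13 were 5.13%, 21.0% and 73.9%, because counts also scale with gene length. Without Hoxd13 they were 5.74%, 47.0% and 47.3%. The number of detected Hox rows was 15, and 20 at 1 count in any library, 13 at 10 counts in all 6, and 13 at an FPKM of 0.1 in all 6.

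The replicate block (pairing by the number in the titles) left the counts of Hox genes at 0 and of related genes at 1. Same-numbered libraries did not deviate together, with correlations of -0.0166, 0.00646 and 0.0750, and 2 of 6 libraries correlated best with their own number. At this depth 3 counts were 0.110 to 0.121 normalised CPM, so that changes in the Hox genes of a few counts could not be seen.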
